A study of Mus musculus with 24 samples.

Results

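The 10 genes described here encode C-type lectin receptors of myeloid cells: Clec4d, Clec4e, Clec4n, Clec4a1, Clec4a2, Clec4a3, Clec5a, Clec7a, Clec10a and Clec12a. They are 10 of the 32561 genes in the deposited expression table and were matched by gene symbol, each to 1 row. The set was chosen by its Kl/Kl against control values in these same libraries, so those values are given below as a description. RNA was measured in 24 mouse aortas, 4 animals in each of 6 groups, all congenic on 129S1/SvlmJ and 44 to 53 days old. Kl/Kl mice are homozygous for a recessive Klotho mutation, and the labels give them as having renal disease. Their controls had healthy renal function and were Klotho+/Kl, except male Bmp2+/+ control replicate 1, which was Klotho+/+. Both Klotho states were present in Bmp2+/+ males, in Bmp2+/+ females and in males homozygous for a mutated Bmp2 allele, deltaUCS. Mutants and controls came from heterozygous parents and the alleles are carried by the whole animal, so no comparison is restricted to 1 cell type. All cages received moistened chow after weaning.

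Myeloid C-type lectin receptors are surface proteins of macrophages, monocytes, dendritic cells and neutrophils that bind sugars and lipids of microbes, and in some cases material from dying cells. Activating members signal through an immunoreceptor tyrosine motif to the kinase Syk and the adaptor Card9, either with a motif of their own, as Clec7a does, or through the partner chains Fcer1g and Tyrobp. Other members carry an inhibitory motif that recruits phosphatases. In the arterial wall such receptors are found mainly on infiltrating and resident myeloid cells.

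Levels are in TPM, a count of transcripts scaled to a fixed library total. Libraries held an estimated 20590000 to 61099000 reads. Mitochondrially encoded genes took 40.2% to 61.2% of TPM, which shifts every other gene because the total is fixed. TPM here was divided by the genomic span of a gene, so values are compared between libraries and never between genes. The Klotho gene itself, Kl, was nearly undetected in aorta, at 0 to 30 estimated reads, and does not check the Klotho labels. Macrophage markers were detected in every group, as were markers of smooth muscle, fat, heart muscle and airway epithelium. The labelled sex was contradicted in 2 libraries by Xist, made by the inactive X chromosome, and Ddx3y, carried on the Y. Replicate 1 of the male Bmp2+/+ Kl/Kl group, by its label, read 11.4 TPM for Xist and 0.0138 TPM for Ddx3y. Replicate 2 of the female Kl/Kl group, by its label, read 0.0281 TPM for Xist and 4.81 TPM for Ddx3y. Results below come from the other 22 libraries. Ratios of means, overlap in TPM, ratios to macrophage markers and counts of calls are also given with all 24, while overlap after rescaling, cluster neighbours and correlations were computed on the 22 alone.

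Both libraries that went against their labelled sex also had receptor levels in the range of controls. Summed over the 10 genes, the male library had 1.38 TPM and the female library 1.19 TPM. Controls ranged from 0.704 to 2.06 TPM over the 3 strata, and the other Kl/Kl libraries from 3.98 to 20.3 TPM. Their mean log2 TPM over 10 macrophage markers was 0.77 and 0.81, within the −0.07 to 1.49 of the control libraries and below the 1.82 of the lowest other Kl/Kl library. What these libraries hold was not tested.

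Clec4d and Clec4e are neighbours on mouse chromosome 6 (mm39) that face each other. Clec4d (ENSMUSG00000030144) lies at 123239070 to 123252225 on the plus strand and Clec4e (ENSMUSG00000030142) at 123258748 to 123266830 on the minus strand. Promoter windows from RefSeq on GRCm38.p6, 250 bases before to 50 bases after the start, were matched for 8 of the 10 genes, and those of Clec4n and Clec10a were not used here. The 4 windows below are shown because they belong to the 3 receptors whose ratio to macrophage markers was higher in Kl/Kl without overlap in every stratum of the 22 libraries, and to Clec4a1, whose Kl/Kl mean was closest to its control mean in deltaUCS males. Clec7a has a further window in the table that is not printed. Capitals mark the core motif of the myeloid factor PU.1 (GAGGAA, or TTCCTC on the other strand) and, in Clec4e only, also a C/EBP-type motif (TTGCNNAA on either strand).

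Clec4d promoter, chr6:123261857-123262156, plus strand: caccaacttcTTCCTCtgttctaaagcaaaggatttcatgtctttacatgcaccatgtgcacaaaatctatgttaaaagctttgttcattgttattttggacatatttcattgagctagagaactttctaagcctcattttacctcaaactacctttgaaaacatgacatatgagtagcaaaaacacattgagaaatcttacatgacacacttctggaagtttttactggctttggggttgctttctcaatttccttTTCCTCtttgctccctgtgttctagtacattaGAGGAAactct
Clec4e promoter, chr6:123289822-123290121, minus strand: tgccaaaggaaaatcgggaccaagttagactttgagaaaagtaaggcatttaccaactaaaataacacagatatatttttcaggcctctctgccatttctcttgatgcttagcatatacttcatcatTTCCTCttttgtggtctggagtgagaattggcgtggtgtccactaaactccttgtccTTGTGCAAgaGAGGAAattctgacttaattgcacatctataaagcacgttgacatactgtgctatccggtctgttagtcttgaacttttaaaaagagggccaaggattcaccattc
Clec7a promoter, chr6:129472730-129473029, minus strand: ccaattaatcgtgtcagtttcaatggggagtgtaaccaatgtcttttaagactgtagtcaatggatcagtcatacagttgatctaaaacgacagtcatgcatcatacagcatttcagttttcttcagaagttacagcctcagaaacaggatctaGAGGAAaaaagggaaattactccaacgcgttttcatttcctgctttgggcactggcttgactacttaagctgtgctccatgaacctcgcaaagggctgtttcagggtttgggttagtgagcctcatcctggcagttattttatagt
Clec4a1 promoter, chr6:122921598-122921897, plus strand: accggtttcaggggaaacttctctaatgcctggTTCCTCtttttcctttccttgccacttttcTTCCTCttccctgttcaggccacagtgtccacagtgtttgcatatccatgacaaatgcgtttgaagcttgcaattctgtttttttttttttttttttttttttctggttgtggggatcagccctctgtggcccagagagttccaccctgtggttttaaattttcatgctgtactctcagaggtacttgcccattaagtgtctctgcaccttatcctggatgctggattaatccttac

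The GAGGAA core was present in 6 of the 8 windows and in 28.3% of all 32851 promoter windows. The AP-1 motif TGANTCA was in 2 of the 8 and in 7.81% of all, and TTGCNNAA was in 2 of the 8 and in 10.8% of all. Motifs were searched on both strands. In the Clec4e window the C/EBP-type match, TTGTGCAA, lies next to the second of its 2 GAGGAA cores. Clec4a1, with the smallest Kl/Kl difference in deltaUCS males, held 2 cores and Clec4d held 3. A match is only a description of the letters.

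Clec4d and Clec4e were barely detected in control aortas and had the highest ratios of Kl/Kl to control of the set in every stratum. Clec4d encodes a receptor that pairs with Clec4e and Fcer1g and binds mycobacterial glycolipid. In male Bmp2+/+ controls it was 0.0729, 0.0127, 0.0317 and 0.0246 TPM in replicates 1 to 4, and in Kl/Kl replicates 2, 3 and 4 it was 2.02, 1.70 and 3.37 TPM. Female controls had 0.0882, 0.0457, 0.0298 and 0.00615 TPM and female Kl/Kl replicates 1, 3 and 4 had 1.96, 3.61 and 2.52 TPM. In deltaUCS males the controls had 0.0148, 0.0349, 0.0220 and 0.0547 TPM and the Kl/Kl aortas 0.946, 1.05, 1.51 and 0.879 TPM. The groups did not overlap in any stratum, and the lowest Kl/Kl library was 23.3-fold, 22.2-fold and 16.1-fold above the highest control of its stratum. The libraries that went against their labelled sex stood among the controls, at 0.0173 TPM for the male and 0.0737 TPM for the female.

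Mean Clec4d in Kl/Kl aortas of male Bmp2+/+ mice reached 2.36 ± 0.887 TPM (SD, n = 3), 66.6-fold the control mean of 0.0355 ± 0.0261 TPM (SD, n = 4). The ratio of means was 63.5-fold in females and 34.7-fold in deltaUCS males. With the 2 doubted libraries kept it was 50.1-fold in males and 48.1-fold in females. Behind the control values stand few reads, 3 to 41 per library, against 368 to 1597 in the Kl/Kl libraries. The size of the ratio therefore rests on few control reads.

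Clec4e encodes Mincle, the Fcer1g-coupled receptor for mycobacterial cord factor and for a protein released by dead cells. Male Bmp2+/+ controls had 0.107, 0.00888, 0.0737 and 0.0401 TPM against 2.17, 1.37 and 1.71 TPM in Kl/Kl replicates 2, 3 and 4. Female controls had 0.0840, 0.0496, 0.0539 and 0.0300 TPM against 1.45, 2.29 and 3.11 TPM in Kl/Kl replicates 1, 3 and 4. In deltaUCS males the controls had 0.0197, 0.0971, 0.0239 and 0.0863 TPM and the Kl/Kl aortas 1.23, 1.02, 1.23 and 0.521 TPM. Every Kl/Kl library named here was above every control of its stratum. The ratio of means was 30.5-fold in males, 42.0-fold in females and 17.7-fold in deltaUCS males, and 23.3-fold and 31.8-fold in males and females with the doubted libraries, which had 0.0923 and 0.0675 TPM.

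Clec4n encodes the Fcer1g-coupled receptor for fungal mannans known as Dectin-2. It differed most between female groups, where controls had 0.0560, 0.0383, 0.0178 and 0.0267 TPM and Kl/Kl replicates 1, 3 and 4 had 1.22, 1.69 and 1.06 TPM. Male Bmp2+/+ controls were more spread, at 0.138, 0.0209, 0.392 and 0.0458 TPM, against 0.918, 0.508 and 0.951 TPM in Kl/Kl replicates 2, 3 and 4. In deltaUCS males controls were 0.0247, 0.0713, 0.0239 and 0.156 TPM and Kl/Kl 1.26, 0.592, 0.355 and 0.427 TPM. The groups did not overlap in the 22 libraries, though in Bmp2+/+ males the lowest Kl/Kl library was only 1.30-fold above control replicate 3. The ratio of means was 5.32-fold, 38.2-fold and 9.55-fold in males, females and deltaUCS males. With all 24 libraries it was 4.21-fold in males and 28.8-fold in females.

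Clec7a, the beta-glucan receptor Dectin-1, signals with a motif of its own. The deposited table gives its biotype as polymorphic pseudogene (ENSMUSG00000079293, mm39 chromosome 6, 129438554 to 129449743, minus strand). Male Bmp2+/+ controls had 0.314, 0.107, 0.181 and 0.166 TPM and Kl/Kl replicates 2, 3 and 4 had 3.00, 2.03 and 1.77 TPM. Female controls had 0.225, 0.0767, 0.0818 and 0.101 TPM and Kl/Kl replicates 1, 3 and 4 had 2.85, 3.67 and 4.53 TPM. In deltaUCS males the controls had 0.152, 0.173, 0.114 and 0.214 TPM and the Kl/Kl aortas 2.05, 1.09, 1.14 and 0.637 TPM. All Kl/Kl libraries named here lay above all controls. The ratio of means was 11.8-fold, 30.4-fold and 7.53-fold in the order males, females and deltaUCS males, and 9.10-fold and 23.0-fold in the first pair with the doubted libraries, at 0.177 and 0.119 TPM.

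Clec5a, which signals through Tyrobp and lies apart from the other chromosome 6 members at 40551828 to 40562756 (mm39, minus strand), had 0.126, 0.0591, 0.139 and 0.0996 TPM in male Bmp2+/+ controls. Kl/Kl replicates 2, 3 and 4 had 1.38, 0.958 and 0.806 TPM. In females it was 0.117, 0.0655, 0.0319 and 0.0419 TPM in controls and 1.12, 2.06 and 1.65 TPM in Kl/Kl replicates 1, 3 and 4. In deltaUCS males it was 0.0518, 0.0964, 0.0640 and 0.138 TPM in controls and 0.792, 0.529, 0.753 and 0.233 TPM in Kl/Kl. The groups did not overlap in any stratum, and the smallest distance was in deltaUCS males, where Kl/Kl replicate 4 was 1.70-fold above the highest control. The ratio of means was 9.89-fold in males, 25.1-fold in females and 6.60-fold in deltaUCS males. With all 24 libraries it was 7.75-fold in males and 19.2-fold in females, and Clec5a was the only member whose male groups still did not overlap.

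The receptors with an inhibitory motif, Clec4a2 and Clec12a, were also higher in Kl/Kl. Male Bmp2+/+ Kl/Kl aortas had 0.360 ± 0.104 TPM (SD, n = 3) of Clec4a2 and their controls 0.0394 ± 0.0179 TPM (SD, n = 4), and 0.523 ± 0.151 against 0.0335 ± 0.0141 TPM in females (SD, n = 3 and 4). In deltaUCS males its Kl/Kl values were 0.229, 0.179, 0.215 and 0.192 TPM, a narrow range above the controls at 0.0358 to 0.0612 TPM. Clec12a, which binds uric acid crystals, was 1.07, 0.540 and 0.587 TPM in male Kl/Kl replicates 2, 3 and 4 against 0.150, 0.0476, 0.307 and 0.122 TPM in controls. Its ratio of means was 4.67-fold in males, 13.8-fold in females and 3.96-fold in deltaUCS males. With all 24 libraries the ratio for Clec12a was 3.79-fold in males and 10.6-fold in females, and for Clec4a2 it was 7.15-fold and 12.0-fold, from 9.15-fold and 15.6-fold. Both genes had no overlap between groups in any stratum of the 22 libraries.

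Clec4a1 and Clec10a had the smallest ratios of means in each of the 3 strata. Clec4a1 had 0.737, 0.355 and 0.805 TPM in male Kl/Kl replicates 2, 3 and 4 and 0.111 to 0.228 TPM in their controls. In deltaUCS males it was 0.466, 0.332, 0.402 and 0.274 TPM in Kl/Kl against 0.158, 0.159, 0.217 and 0.241 TPM in controls, 1.90-fold. Clec4a3 had ratios of 5.71-fold, 7.46-fold and 2.85-fold in males, females and deltaUCS males. Kept at 24 libraries, the male and female ratios were 2.96-fold and 4.38-fold for Clec4a1, 4.60-fold and 5.95-fold for Clec4a3, and 2.87-fold and 4.68-fold for Clec10a. Clec10a, the galactose-type lectin of macrophages and dendritic cells (chromosome 11, 70047023 to 70061661, mm39), was the only member whose groups overlapped in TPM, in all 3 strata. Female Kl/Kl replicates 1, 3 and 4 had 1.59, 3.52 and 0.365 TPM of it against 0.202, 0.467, 0.348 and 0.245 TPM in controls, so replicate 4 lay among the controls. Values of the Clec4a copies are uncertain, because they belong to a family of similar genes, as is that of Clec10a, which resembles Mgl2. How reads that match several genes were counted is unknown here.

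**Figure D1:**
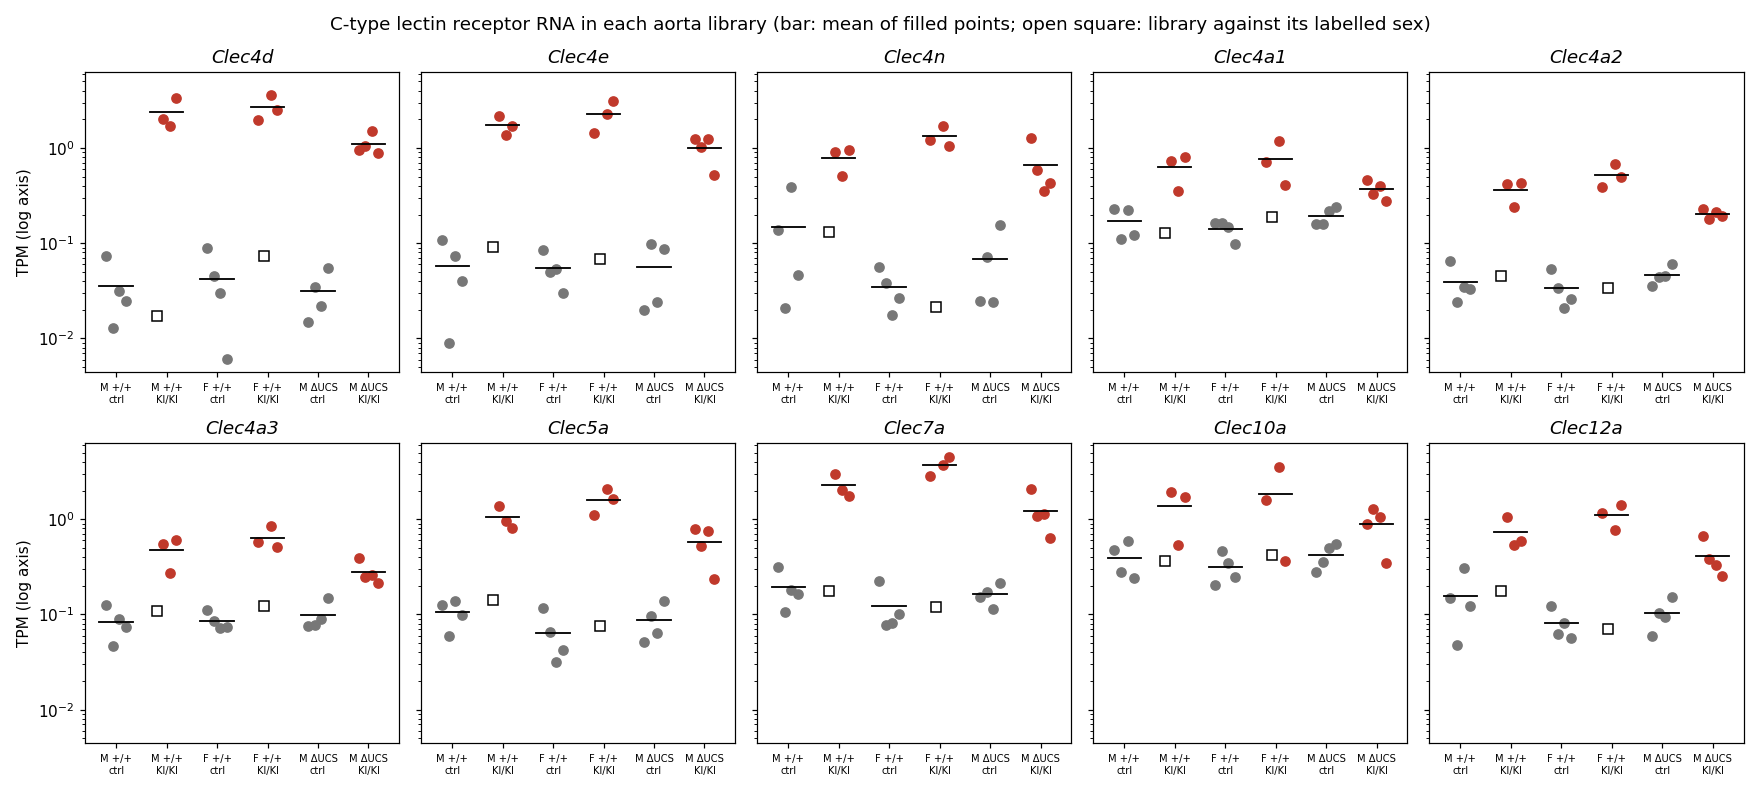
TPM of each receptor in every aorta library, on a log axis, by sex (M, F), Bmp2 genotype (+/+ or deltaUCS, drawn as ∆UCS) and Klotho state (ctrl or Kl/Kl). Filled points are single libraries, bars are the mean of the filled points, and open squares are the 2 libraries against their labelled sex. The open squares sit at control level, and for Clec4d the Kl/Kl points run from 0.879 to 3.61 TPM against 0.00615 to 0.0882 TPM in controls.

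Counting members, 9 of 10 had groups that did not overlap, Kl/Kl higher, in each stratum of the 22 libraries, Clec10a being the exception. Among the 22075 genes with enough reads, 5.13% did so in Bmp2+/+ males, 29.3% in females and 5.99% in deltaUCS males. With libraries scaled by the median of ratios the female share was 9.93%. On that scaling the shares in the other strata were 5.87% and 3.98%, and the members without overlap were 10 in males, 9 in females and 9 in deltaUCS males, where Clec4a1 overlapped and Clec10a did not. As labelled, with all 24 libraries, the members without overlap were 1 in males and 2 in females, beside 0.983% and 10.9% of genes. In deltaUCS males, where neither doubted library belongs, the count and the share are those given above.

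Of the 6 members that passed the filter on low values (Clec4d, Clec4e, Clec4n, Clec5a, Clec7a and Clec10a), limma on log2(TPM + 1) called 4 higher in Bmp2+/+ males, 5 in females and 3 in deltaUCS males at an adjusted p of 0.05. Among all 9861 genes tested, 1.04%, 2.61% and 0.537% were called higher. Because the genes were chosen for this contrast, nothing is read from the counts. The members that passed did so through their Kl/Kl values. Clec4a1, Clec4a2, Clec4a3 and Clec12a fell below the filter although Clec12a had up to 1342 estimated reads in a library, since TPM was divided by the genomic span. All 10 were therefore also described on reads estimated from the table, with limma voom. It called 9, 9 and 6 of 10 higher, beside 1.37%, 2.06% and 0.711% of 22075 genes.

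On estimated reads the log2 change of Kl/Kl against control in Bmp2+/+ males was 6.04 (SE 0.66) for Clec4d, 4.92 (SE 0.60) for Clec4e, 3.36 (SE 0.41) for Clec7a and 3.06 (SE 0.45) for Clec5a. In females the same genes had 5.86 (SE 0.63), 4.74 (SE 0.60), 4.45 (SE 0.41) and 4.09 (SE 0.46), and Clec4n had 4.70 (SE 0.65). In deltaUCS males Clec4d had 4.79 (SE 0.64), Clec4e 3.96 (SE 0.58) and Clec4n 3.05 (SE 0.59), while Clec4a1 had 0.52 (SE 0.31) and Clec10a 0.62 (SE 0.45). The median over the 10 members was 2.84 in males, 3.73 in females and 2.00 in deltaUCS males, beside −0.03, −0.04 and 0.04 over all genes tested. The order of the members was similar in the 3 strata, with Clec4d first and Clec4a1 or Clec10a last in each.

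When all 24 libraries entered under their labels, 0 of 6 members were called by limma in each of the 3 strata, and 0.0% of 9933 genes. At an unadjusted p under 0.05 there were 4, 6 and 5 members in males, females and deltaUCS males, beside 603, 1498 and 1628 of 9933 genes. Limma voom with all 24 called 0 of 10 members and 0.0% of 22141 genes. It had 10, 10 and 8 members at an unadjusted p under 0.05, beside 1762, 2567 and 3475 of 22141 genes. Because the genes were chosen for this contrast, nothing is read from these counts either. All 10 members kept a positive log2 change in each stratum of both fits. In deltaUCS males the group values are the same with 22 and 24 libraries, but the spread used by the test is estimated over all groups.

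**Figure D2:**
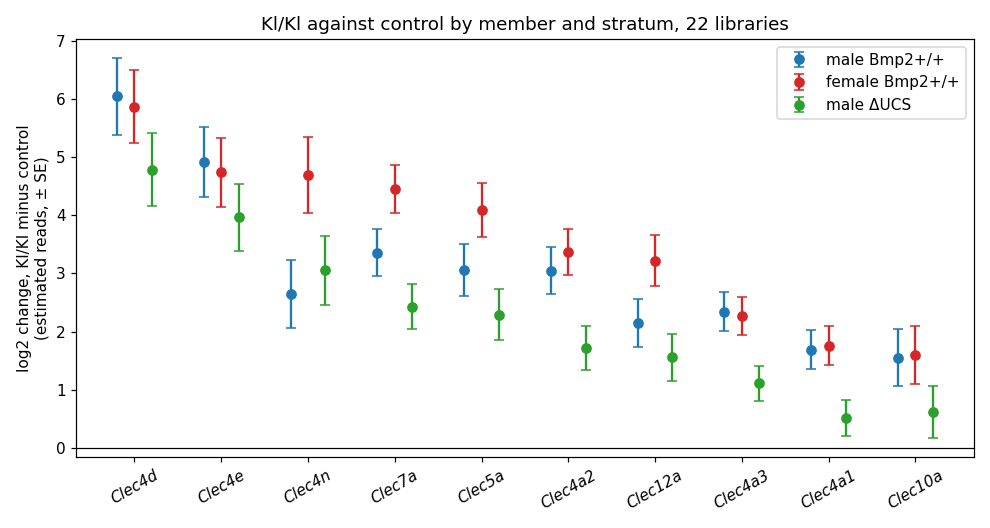
Log2 change of Kl/Kl against control on estimated reads (vertical axis, with its SE) for each receptor in male Bmp2+/+ (blue), female Bmp2+/+ (red) and male deltaUCS aortas (green), 22 libraries. All 30 values are above 0, from 6.04 for Clec4d in males to 0.52 for Clec4a1 in deltaUCS males.

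Markers of macrophages moved with these receptors. The summed TPM of 10 macrophage markers was 41.3 to 208 in male Bmp2+/+ controls and 419 to 705 in Kl/Kl, 49.8 to 86.0 and 703 to 723 in females, and 39.2 to 125 and 264 to 449 in deltaUCS males. Much of this sum was Lyz2, at 281 to 445, 439 to 516 and 188 to 277 TPM in the Kl/Kl groups in that order. Limma voom called 8, 8 and 4 of these 10 markers higher, among them Cd68, Cd14, Mpeg1 and Lyz2 in every stratum. Of all genes, 1.37%, 2.06% and 0.711% were called higher. No gene of any list was called with all 24 libraries. In whole aorta, more cells of a type and more RNA per cell cannot be told apart. The part of cell number in the receptor values was not tested, but each member could be set against the mean log2 TPM of the 10 macrophage markers in the same library.

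Relative to macrophage markers, the members parted. Clec4d was higher in Kl/Kl by 3.92 in Bmp2+/+ males, 3.58 in females and 3.42 in deltaUCS males on the log2 scale, Clec4e by 3.04, 2.52 and 2.58, and Clec7a by 1.28, 2.15 and 0.99. For these 3 genes the Kl/Kl and control libraries did not overlap in this ratio in any stratum. Clec4n differed by 0.81, 2.45 and 1.69 and Clec5a by 0.98, 1.89 and 0.85, without overlap in females only. Clec4a2 differed by 0.89, 1.12 and 0.32, without overlap in Bmp2+/+ males only. Clec12a differed by 0.09, 0.92 and 0.14 and Clec4a3 by 0.16, −0.01 and −0.30, with overlap throughout. Clec4a1 and Clec10a were lower relative to the markers, by −0.48, −0.57 and −0.91 for Clec4a1 and by −0.65, −0.81 and −0.84 for Clec10a. Groups did not overlap for Clec4a1 in deltaUCS males, nor for Clec10a in Bmp2+/+ males and deltaUCS males. With all 24 libraries the differences in males and females were 2.73 and 2.89 for Clec4d, 2.55 and 1.86 for Clec4e, and 0.93 and 1.52 for Clec7a, and all members overlapped in both strata except Clec4e in males. The markers themselves differed. On estimated reads in Bmp2+/+ males the log2 change was 3.60 for Cd68 and 3.64 for Mpeg1, but 1.05 for Csf1r and 1.11 for C1qa. Clec7a changed less than Cd68 and Mpeg1 there, so its ratio depends on which markers are averaged. Every member changed by at least 1.55 there, more than Csf1r and C1qa. The lower ratios of Clec4a1 and Clec10a in Bmp2+/+ males therefore also depend on the markers averaged. These ratios were not tested.

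**Figure D3:**
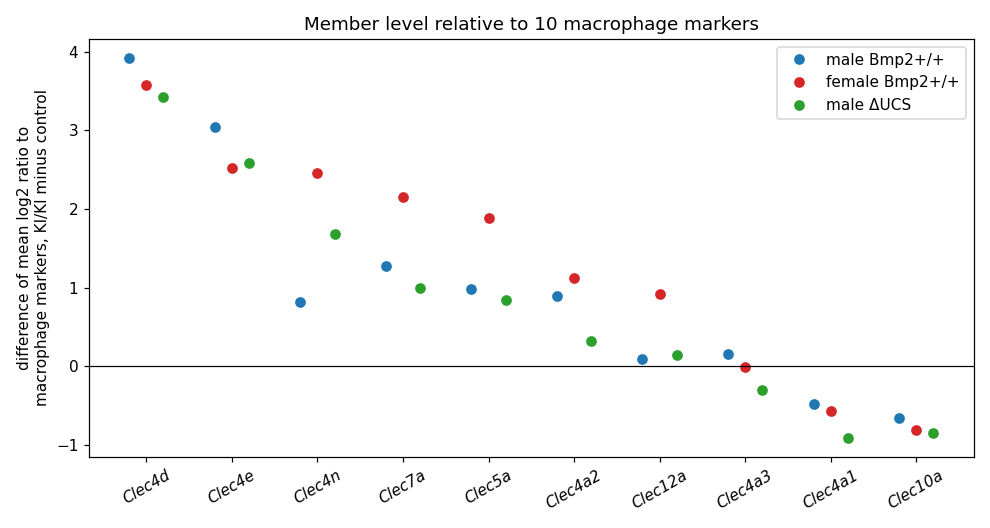
Difference between Kl/Kl and control in the mean log2 ratio of each receptor to 10 macrophage markers (vertical axis), in male Bmp2+/+ (blue), female Bmp2+/+ (red) and male deltaUCS aortas (green). Clec4d and Clec4e lie at 2.52 to 3.92 in every stratum, while Clec10a lies at −0.84 to −0.65.

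Markers of other cells that carry these receptors moved less regularly. Summed neutrophil markers were 1.26 to 9.93 TPM in male Bmp2+/+ controls and 5.81 to 63.0 TPM in Kl/Kl, 0.910 to 16.4 and 4.25 to 23.6 TPM in females, and 0.537 to 4.52 and 4.94 to 31.0 TPM in deltaUCS males. Limma voom called 1, 2 and 0 of 9 of them higher, beside 1.37%, 2.06% and 0.711% of all genes. Ly6g, which defines neutrophils, had too few reads to test. Of 6 monocyte markers 0, 3 and 0 were called, Ccr2, Plac8 and Chil3 in females. Of 7 dendritic cell markers only Itgax, an integrin that macrophages also express, was called, in each stratum. Of 6 markers of resident adventitial macrophages limma voom called 0 in each stratum, and 3, 2 and 0 had an unadjusted p under 0.05 in males, females and deltaUCS males. On TPM limma called 0 of 3, and 2, 3 and 1 had such a p. Over all genes, 2867, 3913 and 3777 of 22075 by limma voom and 1097, 2462 and 1665 of 9861 on TPM had such a p. Both fits also called 0 markers of T and NK, B, mast, smooth muscle, endothelial, fibroblast, adipocyte and cardiac muscle cells, and at an unadjusted p under 0.05 no such list had more than 3. Among airway epithelium markers Scgb3a1 was called in deltaUCS males by limma voom and in females and deltaUCS males on TPM. Summed airway epithelium markers were 413 to 1781 TPM in male Bmp2+/+ controls and 510 to 2419 TPM in Kl/Kl. They were 261 to 1317 and 2356 to 3236 TPM in females, and 6.03 to 858 and 905 to 2388 TPM in deltaUCS males. Summed cardiac muscle markers overlapped in both male strata. In females they were 143 to 251 TPM in controls against 325 to 3772 TPM in Kl/Kl. The part of neutrophils, monocytes, airway and cardiac muscle tissue in the receptor values was not tested.

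The partner chains of the receptors were higher together with them. Fcer1g, the shared Fc receptor gamma chain, was 9.96, 5.23 and 9.93 TPM in male Kl/Kl replicates 2, 3 and 4 against 1.59, 0.664, 2.14 and 1.04 TPM in controls. Its log2 change by limma on TPM was 1.95 (SE 0.23). It changed by 2.53 (SE 0.23) in females and 1.60 (SE 0.21) in deltaUCS males. Tyrobp, the partner of Clec5a, changed by 1.97 (SE 0.31), 2.80 (SE 0.31) and 1.91 (SE 0.28). Of 16 adaptor and signalling genes, Fcer1g and Tyrobp were called in all 3 strata on TPM and on estimated reads. Syk and Card9, the common signalling steps, fell below the TPM filter and were not called on estimated reads. Their groups overlapped in both male strata, Syk being 0.164 to 0.755 TPM in Bmp2+/+ Kl/Kl males and 0.109 to 0.920 TPM in controls. In females they did not overlap, where 29.3% of all genes were higher in Kl/Kl without overlap, and 9.93% after median-of-ratios scaling. Syk was 0.295 to 1.63 TPM in female Kl/Kl against 0.111 to 0.208 TPM in controls, and Card9 0.196 to 0.676 against 0.0647 to 0.131 TPM. The female log2 changes on estimated reads were 1.54 (SE 0.62, limma voom adjusted p = 0.200) for Syk and 1.48 (SE 0.42, limma voom adjusted p = 0.066) for Card9.

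Genes that these receptors can induce were in part higher. Of 14 listed cytokine and inflammatory genes 9 could be tested on estimated reads, and limma voom called 5 higher in males, 8 in females and 2 in deltaUCS males. The shares of all 22075 genes called higher were 1.37%, 2.06% and 0.711%. The list was chosen with earlier results of these data known. Whether the receptors induced these genes here was not tested. Cxcl2, a neutrophil chemokine, was 3.58, 0.747 and 1.23 TPM in male Kl/Kl replicates 2, 3 and 4 and 0.0144 to 0.0560 TPM in controls, a log2 change on estimated reads of 4.85 (SE 0.66). In females and deltaUCS males the change was 4.46 (SE 0.62) and 3.67 (SE 0.61). Ccl3, a chemokine for monocytes, was also called in every stratum. Ptgs2, the inducible cyclooxygenase, was called in males and females, and Il10, Il12b, Il23a, Csf2 and Csf3 had too few reads to test.

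Other C-type lectins were described in the same comparisons. Of 16 other myeloid lectin receptors tested on estimated reads, 1 was called higher in males, 2 in females and 0 in deltaUCS males. The shares of all genes called higher were 1.37%, 2.06% and 0.711%. Mrc1, the mannose receptor, was called in males and females, and Olr1, a receptor for oxidised lipoprotein, in females. On TPM, Cd302 was called in females alone, with a log2 change of 0.61 (SE 0.14). Of endothelial and stromal lectins, such as Thbd, limma voom called 0 of 7 in each stratum, and 2, 1 and 0 had an unadjusted p under 0.05 in males, females and deltaUCS males. On TPM limma called 0 of 5, and 1, 2 and 0 had such a p. Over all genes, 2867, 3913 and 3777 of 22075 by limma voom and 1097, 2462 and 1665 of 9861 on TPM had such a p. The count of called members of these lists was not tested against that of the 10 receptors. The 10 receptors were chosen for this contrast, and these lists were chosen with earlier results of these data known. Nothing is therefore read from the difference between them.

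On chromosome 6, 6 members lie in a 368 kb cluster (mm39, 122898807 to 123266830) with 4 neighbours. The only neighbour with enough reads, Clec4b1, was 0.0261 TPM in male Kl/Kl and 0.0216 TPM in controls, and its groups overlapped in every stratum. Clec7a and Clec12a lie in a 130 kb cluster (129319654 to 129449743) with 5 neighbours, 4 of them with enough reads. Clec1a, an endothelial lectin, was without overlap higher in Kl/Kl in Bmp2+/+ males (0.508 against 0.225 TPM) and females (0.414 against 0.222 TPM) but overlapped in deltaUCS males. Of all genes, 5.13% in males and 29.3% in females were higher without overlap. Clec9a and Clec1b overlapped in all strata. Of the 5 neighbours with reads, 0 were higher without overlap in all 3 strata. The members were chosen for this contrast and the neighbours were not, so nothing is read from the difference between them.

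Among themselves the members varied together. Over the 22 libraries the Pearson r of log2 values between members was 0.718 to 0.985, median 0.935, over 45 pairs. After group means were removed it was 0.054 to 0.867, median 0.648. Clec4a1 and Clec4a3 followed the macrophage markers most closely within groups, with r of 0.878 and 0.862, and Clec7a and Clec4d least, with 0.521 and 0.540. The genes of most similar pattern to the mean of the members were Tlr13, Pira2, Igsf6, F10 and Arl11, with r of 0.988 to 0.982. With group means removed these were Tlr13, Arl11, Lilr4b, Zscan12 and Lilrb4a, at 0.880 to 0.836. Libraries share depth and cell content, so these are descriptions.

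The next question was whether the Bmp2 allele mattered. In control males 0 members were without overlap between the Bmp2 genotypes, beside 1.17% of genes in either direction. In the tests limma called 0 of 6 and limma voom 0 of 10 (0.0% of all genes in both), with 0 at an unadjusted p under 0.05. The 6 passed the filter through their Kl/Kl values. Their control means ran from 0.0316 TPM for Clec4d to 0.419 TPM for Clec10a. On log2(TPM + 1) such values leave little room for a difference, so nothing is read from that fit. The median over the 10 members on estimated reads was 0.05, and −0.66 with all 24 libraries. The control libraries are the same in both, but the library set term is fitted over all groups. The largest difference on estimated reads was in Clec4n, at −1.08 (SE 0.73), deltaUCS against Bmp2+/+, with values of 0.0239 to 0.156 TPM against 0.0209 to 0.392 TPM. On TPM it was in Clec12a, at −0.15, below the filter.

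In Kl/Kl males all 10 receptors were lower with deltaUCS than with Bmp2+/+, and none passed the adjusted test. These Kl/Kl values also served to choose the set, so the comparison is not independent of that choice. Clec7a was 2.05, 1.09, 1.14 and 0.637 TPM with deltaUCS against 3.00, 2.03 and 1.77 TPM, a log2 difference on estimated reads of −1.20 (SE 0.35, limma voom adjusted p = 0.980). Clec5a differed by −1.16 (SE 0.40), Clec12a by −1.18 (SE 0.39), Clec4e by −1.07 (SE 0.45) and Clec4d by −1.04 (SE 0.47). The median over the 10 members was −0.94 and the range −1.20 to −0.63, beside 0.01 over all genes. Limma voom called 0 of 10 members and 0.0% of 22075 genes, with 8 members at an unadjusted p under 0.05, beside 670 of 22075 genes. Limma on TPM called 0 of 6 and 0.0% of 9861 genes, with 4 members at an unadjusted p under 0.05, beside 180 of 9861 genes. The 4 were Clec4d at −0.59 (SE 0.17), Clec4e at −0.48 (SE 0.17), Clec5a at −0.43 (SE 0.15) and Clec7a at −0.64 (SE 0.19).

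Clec4d, Clec4e, Clec4a2 and Clec5a did not overlap between the Kl/Kl males of the Bmp2 genotypes, deltaUCS lower, where 0.892% of all genes did so. With median-of-ratios scaling the members were Clec4e, Clec4a1, Clec5a, Clec7a and Clec12a, beside 1.49% of genes. For Clec4d the deltaUCS aortas reached 1.51 TPM and the lowest Bmp2+/+ aorta was 1.70 TPM. With replicate 1 of the Bmp2+/+ Kl/Kl males kept, whose labelled sex was contradicted, 0 members were without overlap, the median was −0.68, the mean of Clec4n was not lower (0.659 TPM with deltaUCS against 0.627 TPM) and 0 members had an unadjusted p under 0.05 by limma or by limma voom. Macrophage markers were also lower in these deltaUCS aortas, at a mean log2 TPM of 2.46 ± 0.45 (SD, n = 4) against 3.04 ± 0.63 (SD, n = 3). Relative to them Clec7a differed by −0.39, Clec5a by −0.39, Clec4d by −0.49 and Clec10a by −0.01, and all 10 members overlapped. That difference was 0.70 for Clec4d, turned in direction, and −0.04 for Clec7a with all 24 libraries. All deltaUCS libraries belong to 1 library set, so the set could be told apart from the genotype only through the Bmp2+/+ males.

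**Figure D4:**
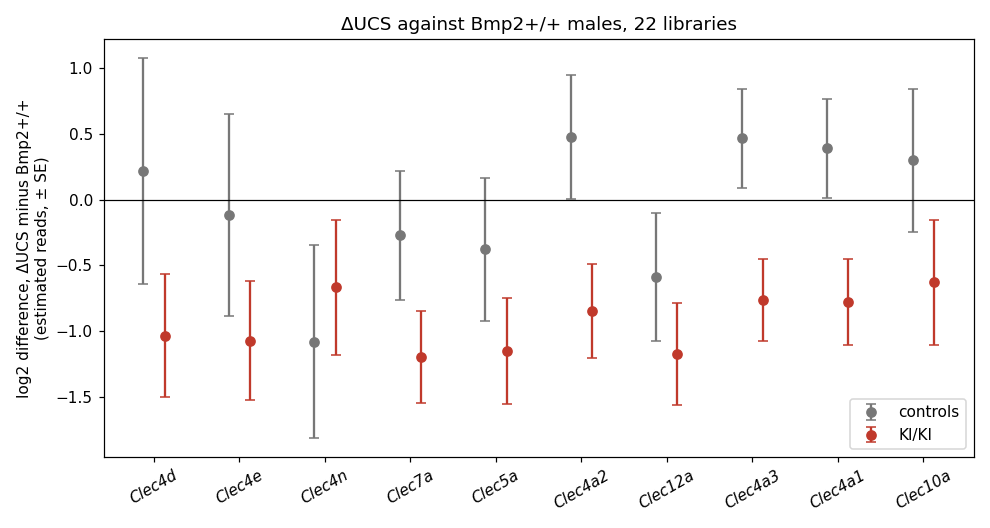
Log2 difference of deltaUCS against Bmp2+/+ males on estimated reads (vertical axis, with its SE) for each receptor, in controls (grey) and in Kl/Kl (red), 22 libraries. The red points lie at −1.20 to −0.63, and the grey points at −1.08 to 0.48.

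The difference of the Klotho effect between the Bmp2 genotypes was tested in the same fits. It is built from the values by which the set was chosen, so it is not independent of that choice. Limma called 0 of 6 members and limma voom 0 of 10, with 0.0% of all genes in both. At an unadjusted p under 0.05 were Clec4d on TPM (−0.69, SE 0.22, limma adjusted p = 0.954) and Clec4a1, Clec4a2 and Clec4a3 on estimated reads (−1.17, −1.33 and −1.23, with a limma voom adjusted p of 0.573). Over all genes, 204 of 9861 on TPM and 1911 of 22075 on estimated reads had such a p. The median over the members was −0.94 on estimated reads and −0.31 with all 24 libraries. No member was at an unadjusted p under 0.05 with all 24.

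Between the sexes no member was called. In Bmp2+/+ controls limma called 0 of 6 and limma voom 0 of 10 members, with 0.0304% and 0.0272% of all genes called, and 0 members were at an unadjusted p under 0.05. Control values were again low on log2(TPM + 1), so nothing is read from the limma result on TPM. The largest differences were −0.10 (SE 0.17) for Clec4d on TPM and −0.84 (SE 0.75) for Clec4n on estimated reads, females against males. For Clec4d the sign rests on the library set term, since mean TPM was 0.0425 in female and 0.0355 in male controls, and the fit without that term gave 0.0094. In Kl/Kl 8 of 10 members were higher in females on estimated reads, by 0.39 in the median, and again 0 of 6 and 0 of 10 were called, beside 0.0304% and 0.0362% of genes. Clec7a, at 2.85 to 4.53 TPM in females and 1.77 to 3.00 TPM in males, had a log2 difference of 0.66 on TPM (SE 0.22, limma adjusted p = 1.00), and Clec5a 0.44 (SE 0.18, limma adjusted p = 1.00). On estimated reads 0 members were at an unadjusted p under 0.05, and Clec4n had the largest difference, 1.21 (SE 0.69). Clec4n was also the 1 member without overlap, higher in females, where 3.27% of genes did so. With median-of-ratios scaling 0 members did, beside 2.7% of genes.

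The Klotho effect did not differ by sex in any member by the adjusted test, with 0 of 6 by limma, 0 of 10 by limma voom and 0.0% of genes called. At an unadjusted p under 0.05 were Clec4n, by 0.53 on TPM (SE 0.24) and 2.05 on estimated reads (SE 0.85, limma voom adjusted p = 0.999), and Clec7a by 0.64 on TPM (SE 0.25, limma adjusted p = 0.988). Over all genes, 141 of 9861 on TPM and 613 of 22075 on estimated reads had such a p. Female libraries all belong to the other library set, and with all 24 libraries 0 members were at an unadjusted p under 0.05 in the comparisons between sexes. The comparisons between sexes in Kl/Kl and of the Klotho effect also use the Kl/Kl values by which the set was chosen.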

How the data were processed

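The authors deposited TPM per gene and library. The submitters' processing notes name Partek and the build mm39, and no source used here gives the aligner, annotation release, use of strand or rule for reads that match several genes. Each column sums to 482073. From the files, the lowest values stand for 0.0001 read and follow the genomic span of a gene. Reads were estimated from this floor, and 77.2% of 170977 values between 0.5 and 20 reads were within 0.05 of a whole number.

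All 24 sample columns were used, with 0 left over and 0 pairs of libraries identical. Each library is 1 aorta, so p-values measure the spread between animals. The 2 libraries in which Xist and Ddx3y disagreed with the labelled sex were left out of the main fit of 22 libraries and kept in an alternative fit of 24. Genes with TPM of at least 1 in at least 4 libraries were tested with limma 3.58.1 (lmFit, eBayes with trend) in R 4.3.3 on log2(TPM + 1), with 6 group means and the library set (from the spelling of library names), 2-sided, Benjamini-Hochberg adjusted over all genes tested, threshold 0.05. This scale understates changes of low genes. Limma voom on estimated reads was planned as an alternative and, after seeing that 4 members fell below the filter, was also run with all 24 libraries, each replicate left out and the replicate block, with at least 10 reads in at least 4 libraries, mitochondrial genes left out and median-of-ratios scaling. Both were also run on simulated counts of independent genes with the same dispersion, a simpler setting than these libraries. No result given here rests on those runs.

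The members and lists were chosen with earlier results of these data known. All members are named in the Klotho comparisons, and elsewhere those at an unadjusted p under 0.05 and the one of largest difference. From each other list up to 4 called genes of largest mean change were eligible. Other genes of those lists (Syk, Card9, Ccl3, Mrc1, Olr1, Chil3, and genes not tested) and cluster neighbours were named after their values were seen. Alternatives were a pseudocount of 0.1, other filters and scalings, no library set, each library set alone, the compared groups alone, age as a covariate, a replicate block and leaving out each replicate. Calls made in 1 stratum only among the adaptor and signalling genes are not reported here.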

Additional observations from a re-analysis of the deposited data

Results flagged for a closer look

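In groups of 4 libraries, 60 combinations of a receptor and a group were checked on the log2 scale for a library far from the others, and 5 were found. Chance gives about 1 in 20 for each check. The members vary together, so the checks are not independent and nothing is read from the count. Each of the 5 was the lowest library of a Kl/Kl group and each was 1 of the 2 libraries against their labelled sex. Clec4d was 0.0173 TPM in replicate 1 labelled male Bmp2+/+ Kl/Kl, where the other 3 libraries had 1.70 to 3.37 TPM, and Clec4e was 0.0923 TPM there against 1.37 to 2.17 TPM. In the library labelled female Kl/Kl replicate 2, Clec4d was 0.0737 TPM against 1.96 to 3.61 TPM, Clec4n 0.0212 TPM against 1.06 to 1.69 TPM and Clec7a 0.119 TPM against 2.85 to 4.53 TPM. What these libraries hold was not tested.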

How the results depend on the processing

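With all 24 libraries the members called in Bmp2+/+ males, females and deltaUCS males were 0, 0 and 0 on TPM and 0, 0 and 0 on estimated reads. The median member change on estimated reads moved from 3.73 to 2.89 in females and from 0.05 to −0.66 for deltaUCS in control males. For the difference of the Klotho effect between Bmp2 genotypes it moved from −0.94 to −0.31. The control-male libraries are the same in both fits, so that estimate depends on the library set term fitted over all groups. Limma voom called 9, 9 and 6 members, the fit with no filter called 9 in females (2.99% of all genes called higher), library set 1 alone called 1 of 3 tested in males (0.122%) and library set 2 alone 3 of 3 in females (11.2%). In the fit of the compared groups alone no member passed the filter in the 3 Klotho comparisons, and it called 0 of 7511 genes in Bmp2+/+ males, with 333 at an unadjusted p under 0.05, against 109 called in the fit of all groups. Age as a covariate left the members called at 4, 5 and 3. No member passed a TPM filter of 5. Clec4d between control females and males, at −0.10, became 0.13 with all 24 libraries, 0.0094 with no library set and 0.033 in library set 2 alone, never called. Leaving out 1 replicate gave 3 to 5 calls on TPM and 5 to 9 on estimated reads in males, 3 to 5 and 9 to 10 in females, and 3 to 5 and 3 to 6 in deltaUCS males. The 5 on estimated reads in males came without Kl/Kl replicate 4, the 3 on TPM in females without Kl/Kl replicate 1 or 3, the 5 on TPM in deltaUCS males without Kl/Kl replicate 4, and the 3 on estimated reads there without control replicate 1 or 3. The cause was not tested. Replicate numbers did not pair the libraries: same-number correlations of deviations ran from −0.51 to 0.55 (median 0.013, 21 of 50 over 0.1), and 7 of 22 libraries correlated best with their own number. Some Kl/Kl and control libraries of equal age have adjacent numbers in their library names, and pairing by those was not tested. With a replicate block the calls were 4, 5 and 3 on TPM and 9, 9 and 6 on estimated reads, as without it, and no other call changed. Precision is limited by control depth, with as few as 3 estimated reads for Clec4d and Clec4e.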
